A study of Mus musculus with 19 samples.

Results

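*Bdh1*, *Oxct1* and *Acat1*, which encode enzymes of ketone body synthesis and use, were taken by their symbols from the deposited RNA-Seq tables of mouse tissues, and all 3 are listed in each table, among 55573 genes for 7 tissues, 55487 genes for brown adipose tissue (BAT) and 13756 genes for inguinal white adipose tissue (iWAT). The tissue libraries came from small intestine, liver, heart, brain, tibialis anterior (TA) muscle and the white and brown adipose tissue of male C57BL/6J WT mice on chow, with 1 library per tissue. The libraries of cold-exposed iWAT and BAT were from males of the WT and MCK-Musclin genotypes at an age of 5 months, with 3 libraries per genotype and tissue, and both genotypes had been kept at 8 °C for 1 week. MCK-Musclin mice carry the coding sequence of Musclin, a peptide secreted by muscle whose gene is *Ostn*, under the muscle creatine kinase promoter, and 5 founder lines had been crossed back to C57BL/6J over 8 generations or more. Which line gave these libraries is not given in the sources used here. The study asked with these libraries in which tissues candidate muscle factors are expressed and what extra Musclin does to gene expression in beige and brown fat.

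Ketone bodies carry acetyl units from the liver to other organs, above all in fasting. Liver mitochondria make acetoacetate, and *Bdh1*, the beta-hydroxybutyrate dehydrogenase of the inner mitochondrial membrane, converts it reversibly to beta-hydroxybutyrate. In tissues that burn ketone bodies, *Bdh1* runs in the other direction, *Oxct1* (succinyl-CoA:ketoacid CoA transferase) activates acetoacetate at the expense of succinyl-CoA from the tricarboxylic acid (TCA) cycle, and *Acat1* (mitochondrial acetoacetyl-CoA thiolase) splits the product into acetyl-CoA. *Acat1* also works in the opposite direction at the start of ketone synthesis and in the last step of isoleucine breakdown. Textbook liver has the enzymes of synthesis and lacks the transferase, and so exports ketone bodies without using them.

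The values are FPKM, the fragments of a gene per exon length and per mapped fragments in the library, so levels can be set side by side between genes within a table. On the GRCm38 annotation, *Bdh1* (ENSMUSG00000046598) lies on the plus strand of chromosome 16 from 31422280 to 31458901. *Oxct1* (ENSMUSG00000022186) lies on the plus strand of chromosome 15 from 4026383 to 4155344, and *Acat1* (ENSMUSG00000032047) lies on the minus strand of chromosome 9 from 53580522 to 53610382. The reads were aligned without using strand, and 533 of the 3888 exon bases of *Bdh1* overlap the antisense gene *Gm15743*, as 467 of the 3701 exon bases of *Oxct1* overlap *BC037032* on the other strand. *Gm15743* reached at most 0.706 FPKM and *BC037032* at most 1.07 FPKM in the 7 tissues, and reads of such pairs cannot be told apart. No stretch of 50 bases of the *Acat1* transcripts recurs in a transcript of another gene, and the shared stretches of the other two lie in those antisense partners alone.

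The FPKM of a library summed to between 364710 and 720852, and the 10 most abundant genes held from 11.9% of the sum in iWAT to 52.4% in the brown adipose library of the 7 tissues, which lowers all other FPKM there. The steps between low values put the depth of the tissue libraries between 0.917 and 1.05 of that of heart and the depth of the cold BAT libraries between 0.892 and 1.11 of that of WT library 1, and no such steps gave a depth for iWAT. The defining markers were highest in their labelled tissue for 20 of the 21 genes checked, the exception being *Elovl3* in brown adipose tissue, where *Ucp1* had 467 FPKM. In BAT, *Ostn* stood at 0 in all WT libraries and at 37.9, 31.6 and 30.4 FPKM in MCK-Musclin libraries 1 to 3. In iWAT it had 0, 0 and 0.225 FPKM in WT mice and 0, 5.17 and 4.21 FPKM in MCK-Musclin mice. MCK-Musclin library 1 of iWAT, with *Ostn* at 0, also had little muscle RNA. Its 12 fast skeletal muscle markers summed to 11.2 FPKM, against 164 and 195 in MCK-Musclin libraries 2 and 3. Whether its *Ostn* value reflects the label or the amount of muscle RNA was not tested. The differences of the members in iWAT are given with and without this library.

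Across the 7 tissues the 3 enzymes had different distributions. *Oxct1* had its highest FPKM in heart, *Acat1* in brown adipose tissue and *Bdh1* in small intestine, and liver, which had *Bdh1* and *Acat1* at high levels, had almost no *Oxct1*. There was 1 library per tissue, so none of these differences has a replicate check.

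*Bdh1* had 72.0 FPKM in small intestine, 46.0 in liver, 18.5 in heart, 17.0 in brain, 3.38 in TA muscle and 0.892 in white adipose tissue. In brown adipose tissue it is listed at 0. Small intestine and liver together held most of its summed FPKM, 45.7% and 29.1%. After 1 was added to each FPKM, small intestine had 1.55 times the value of liver, and with median-ratio scaling the ratio was 0.929, so which of the 2 tissues is higher depends on the scaling. Heart and brain, next in order, differed by a factor of 1.08, and TA muscle was 5.04 times below brain. The 6 cold BAT libraries, which were normalized separately, had from 0.779 to 2.103 FPKM. Of the 1933 genes with a mean of 1 to 2 FPKM in cold BAT, 42, or 2.17%, were listed at 0 in that library.

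*Oxct1* had 395 FPKM in heart, 165 in brown adipose tissue, 149 in TA muscle, 127 in white adipose tissue, 126 in small intestine, 105 in brain and 2.53 in liver. Heart stood 2.38 times above brown adipose tissue with 1 added to each FPKM. The 5 tissues from brown adipose tissue down to brain spanned 1.57-fold. TA muscle was 1.11 times below brown adipose tissue and small intestine 1.01 times below white adipose tissue. The steps from TA muscle to white adipose tissue (1.18) and from small intestine to brain (1.201) were larger. The coefficient of variation of *Oxct1* between libraries of one group in cold fat was 6.43% to 14.2%. That is the spread of single libraries in separately normalized tables, so it does not settle the order of neighbours among these 5 tissues. Liver was 41.5 times below brain, the next tissue in order, and 156 times below heart. In heart, *Oxct1* ranked 84th of the 10807 genes with at least 1 FPKM, and in liver it ranked 8398th of 10666. Of the 85 genes with at least 100 FPKM in each of the other 6 tissues, a group chosen after the values were seen, *Oxct1* had the lowest FPKM in liver, followed by *Pkm*, the pyruvate kinase of muscle and most other tissues, with 5.53.

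*Acat1* had 193 FPKM in brown adipose tissue, 143 in heart, 122 in liver, 83.2 in white adipose tissue, 56.7 in TA muscle, 52.9 in small intestine and 26.7 in brain. Its highest and lowest tissues differed 7.24-fold, against 156-fold for *Oxct1*, but without the liver library the span of *Oxct1* was 3.76-fold and that of *Acat1* again 7.24-fold. Brown adipose tissue was 1.34 times above heart with 1 added to each FPKM and 1.03 times with median-ratio scaling, so these neighbours in the order are not separated. Liver and heart differed 1.17-fold, and small intestine and TA muscle 1.07-fold.

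**Figure D1:**
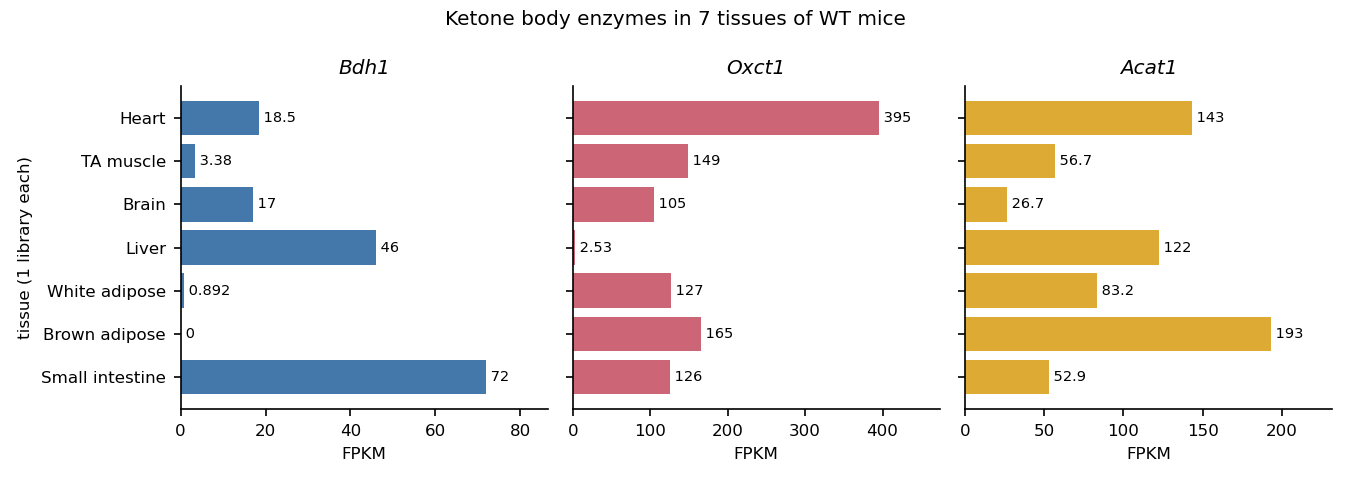
FPKM of *Bdh1*, *Oxct1* and *Acat1* (horizontal axes, each from 0) in 7 tissues of WT mice, with 1 library per bar and so no error. Liver has 46.0 FPKM of *Bdh1* and 122 of *Acat1* but 2.53 of *Oxct1*, and both fat depots have over 100 FPKM of *Oxct1* with under 1 of *Bdh1*.

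The balance of the enzymes differed between tissues. Per FPKM of *Oxct1*, liver had 48.4 of *Acat1* and 18.2 of *Bdh1*. In brown adipose tissue the ratio of *Acat1* to *Oxct1* was 1.17, and in the other 5 tissues it lay between 0.254 in brain and 0.656 in white adipose tissue. The ratio of *Bdh1* to *Oxct1* was 0.571 in small intestine, 0.162 in brain, 0.0468 in heart, 0.0226 in TA muscle and 0.00704 in white adipose tissue. White adipose tissue had the smallest ratio among the tissues in which *Bdh1* is above 0. Citrate synthase, *Cs*, which condenses the acetyl-CoA that *Acat1* yields into the TCA cycle, had 250 FPKM in heart, 438 in brown adipose tissue, 203 in small intestine, 167 in TA muscle, 106 in white adipose tissue, 61.0 in brain and 23.1 in liver. Relative to *Cs*, *Oxct1* was highest in brain (1.72) and heart (1.58) and lowest in liver (0.110).

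Among the genes for ketone use outside the mitochondrial route, *Aacs*, the cytosolic acetoacetyl-CoA synthetase that feeds acetoacetate to lipid synthesis, had 91.4 FPKM in white adipose tissue, 55.3 in liver and 45.9 in brown adipose tissue, and 0.689 in heart and 0.408 in TA muscle. *Acat2*, the cytosolic thiolase, was highest in liver with 31.4 FPKM and had 0.974 in heart. *Oxct2a* and *Oxct2b*, the testis forms of the transferase, reached at most 0.0714 FPKM in any of the 7 tissues, and *Bdh2*, a cytosolic relative of the dehydrogenase, reached 4.87 FPKM in liver. Among the monocarboxylate carriers that move ketone bodies across membranes, *Slc16a1* was highest in heart (53.1 FPKM) and *Slc16a3* in TA muscle (71.3 FPKM). *Slc16a7* was highest in white adipose tissue (7.37 FPKM), and *Bsg*, a chaperone of some of these carriers, had 356 to 940 FPKM. *Hcar2*, the receptor for beta-hydroxybutyrate that restrains lipolysis, was highest in white adipose tissue with 3.21 FPKM, and *Ffar3* is listed at 0 in all 7 tissues.

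**Figure D2:**
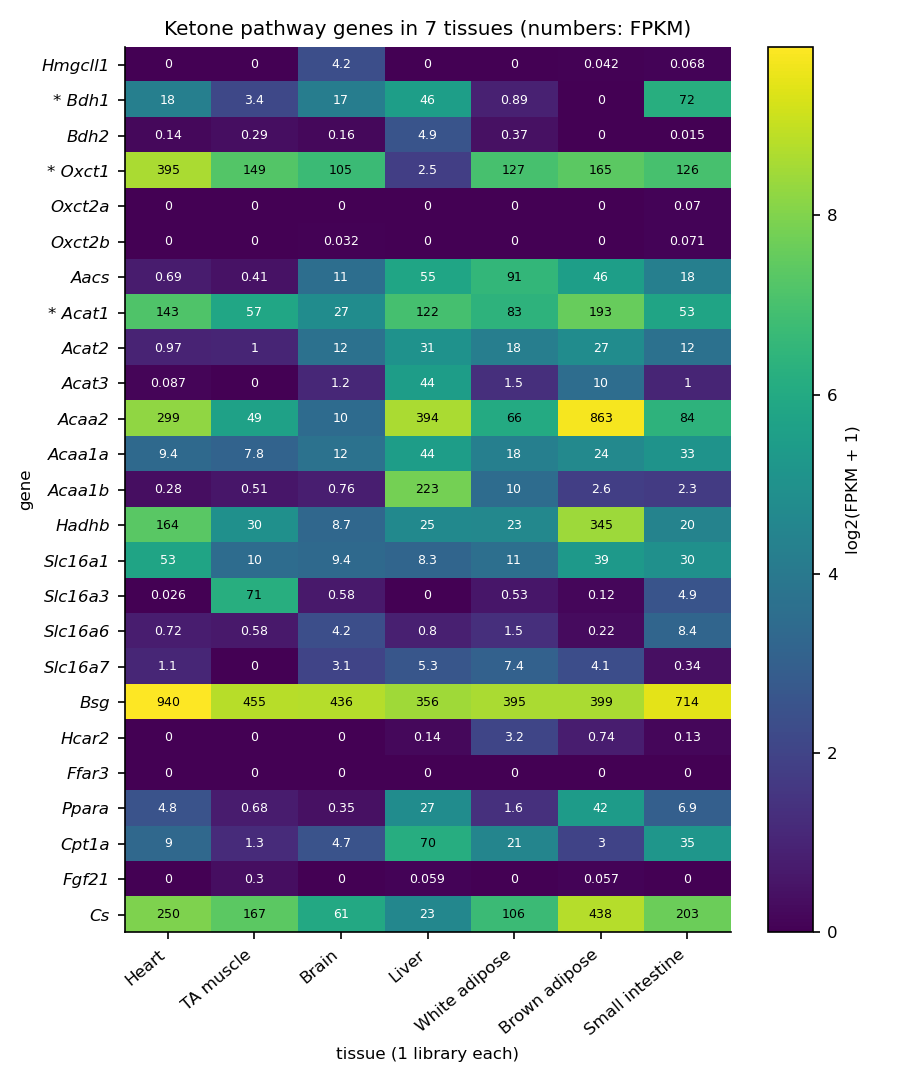
Heat map of the ketone pathway genes and *Cs* (rows, members marked with a star) in the 7 tissues (columns, 1 library each), coloured by log2(FPKM + 1) and with the FPKM written in each cell. Within its row, *Acaa1b* is brightest in liver (223 FPKM), the column in which *Oxct1* has 2.53 FPKM.

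Over the 7 tissues, on log2(FPKM + 1), *Bdh1* had a Pearson's r of -0.39 with *Oxct1* and -0.34 with *Acat1* (Spearman's rho -0.46 and -0.36). Between *Oxct1* and *Acat1* the measures differed in sign, with r = -0.07 and rho = 0.57, and over the 6 tissues other than liver r was 0.67 and rho 0.89. *Oxct1* and *Cs* had r = 0.83 over the 7 tissues and 0.54 without liver. These 7 points are single libraries that differ in the share taken by their top genes, and the values of r are a description. Among the 10413 genes with at least 10 FPKM in some tissue, the genes most like *Oxct1* were *Cox4i2*, a cytochrome oxidase subunit isoform (r = 0.955), *Ubl4a* (0.943), *Kitl*, the KIT ligand (0.931), *Lamtor3* (0.924) and *Flt1*, a VEGF receptor (0.910). All 5 had their lowest FPKM in liver, which largely follows from picking genes by their r with *Oxct1*, itself by far lowest in liver. The genes most like *Acat1* were *Kxd1* (r = 0.981), *Etfdh* (0.967), *Eci1* (0.964), *Acaa2* (0.963) and *Zadh2* (0.963), of which *Etfdh*, *Eci1* and *Acaa2* act in fatty acid oxidation. The genes most like *Bdh1* were *Dcun1d1* (r = 0.975), *Rnf128* (0.965), *Tstd3* (0.949), *Plekha6* (0.948) and *Arhgef19* (0.923). Likeness here is of shape and not of size, since *Dcun1d1* ranged only from 6.77 to 16.1 FPKM where *Bdh1* ranged from 0 to 72.0.

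In cold-exposed fat the genotypes of a table were set against each other by limma on log2(FPKM + 1), over the 12197 genes of iWAT and the 10893 genes of BAT with a mean of at least 1 FPKM in the 6 libraries. All 3 members passed this filter in both tissues, *Bdh1* narrowly. None of the members differed between MCK-Musclin and WT mice past an adjusted p of 0.05 in either tissue. In iWAT *Acat1* was lower in every MCK-Musclin library than in any WT library, *Oxct1* and *Bdh1* overlapped between the groups, and in BAT all 3 overlapped. Bulk tissue was sequenced, so fewer cells of a type and less RNA per cell cannot be told apart.

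In iWAT, *Acat1* had 142, 152 and 154 FPKM in WT libraries 1 to 3 and 141, 130.4 and 117 FPKM in MCK-Musclin libraries 1 to 3. The groups did not overlap, but the highest MCK-Musclin library, the one in which *Ostn* is listed at 0, lay within 1 FPKM of the lowest WT library. The means were 149 ± 6.35 FPKM in WT and 129.6 ± 11.9 FPKM in MCK-Musclin mice (SD, n = 3), 13.2% lower. The log2 difference was -0.21 (SE 0.10, 95% interval -0.45 to 0.03), with an adjusted p of 0.36 in limma with Benjamini-Hochberg adjustment over all genes of the table. This difference was lower than that of most genes, at the 11.6th percentile of all differences. Of the genes tested in iWAT, 5.44% had all MCK-Musclin libraries below the lowest WT library and 17.9% had all of them above the highest. Without MCK-Musclin library 1 the difference was -0.27 with an adjusted p of 0.313 (limma), and leaving out each of the 6 libraries in turn gave -0.27 to -0.14.

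*Oxct1* had 102, 102 and 114 FPKM in WT libraries of iWAT and 119, 98.5 and 90.2 FPKM in MCK-Musclin libraries. The highest and the lowest of the 6 values were both in the MCK-Musclin group, so the groups overlapped completely. The log2 difference was -0.06 (SE 0.12, 95% interval -0.34 to 0.23), with an adjusted p of 0.854 (limma), and leaving out MCK-Musclin library 1 gave -0.17, whereas leaving out library 3 of that genotype gave 0.03. The interval includes the difference of *Acat1*.

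*Bdh1* had 1.61, 1.02 and 2.43 FPKM in the WT group and 1.90, 1.79 and 1.61 FPKM in MCK-Musclin libraries of iWAT, at the edge of what the table resolves. The WT libraries spread more widely than the MCK-Musclin libraries and enclosed them. The log2 difference was 0.07 (SE 0.20, 95% interval -0.39 to 0.54) with an adjusted p of 0.884 (limma), with 0.04 when MCK-Musclin library 1 was left out and the opposite sign when WT library 2 was (-0.12). On the log2(FPKM + 1) scale a change in so low a gene is understated.

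In BAT, *Acat1* had 213, 208 and 227 FPKM in the WT libraries, against 200.4, 204 and 209.7 FPKM with the transgene. MCK-Musclin library 3 lay above WT library 2, and the log2 difference was -0.08 (SE 0.07, 95% interval -0.25 to 0.10) with an adjusted p of 0.968 (limma). *Oxct1* had 73.6, 67.4 and 83.5 FPKM in WT and 74.3, 69.7 and 83.7 FPKM in MCK-Musclin mice, a log2 difference of 0.02 (SE 0.11, 95% interval -0.24 to 0.28) with an adjusted p of 0.996 (limma). The ranges of the genotypes, 67.4 to 83.5 FPKM in WT and 69.7 to 83.7 FPKM in MCK-Musclin mice, overlapped almost fully. *Bdh1* had 1.54, 1.43 and 1.44 FPKM in WT and 1.32, 0.779 and 2.103 FPKM in MCK-Musclin mice, a log2 difference of -0.08 (SE 0.21) with an adjusted p of 0.988 (limma). Its sign changed without MCK-Musclin library 2, to 0.12. Of the genes tested, 0.00918% (1 gene, *Ostn*) passed an adjusted p of 0.05 in BAT and 0% in iWAT by limma, where 420 genes, or 3.44%, were lower and 1592 were higher at an unadjusted p under 0.05.

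**Figure D3:**
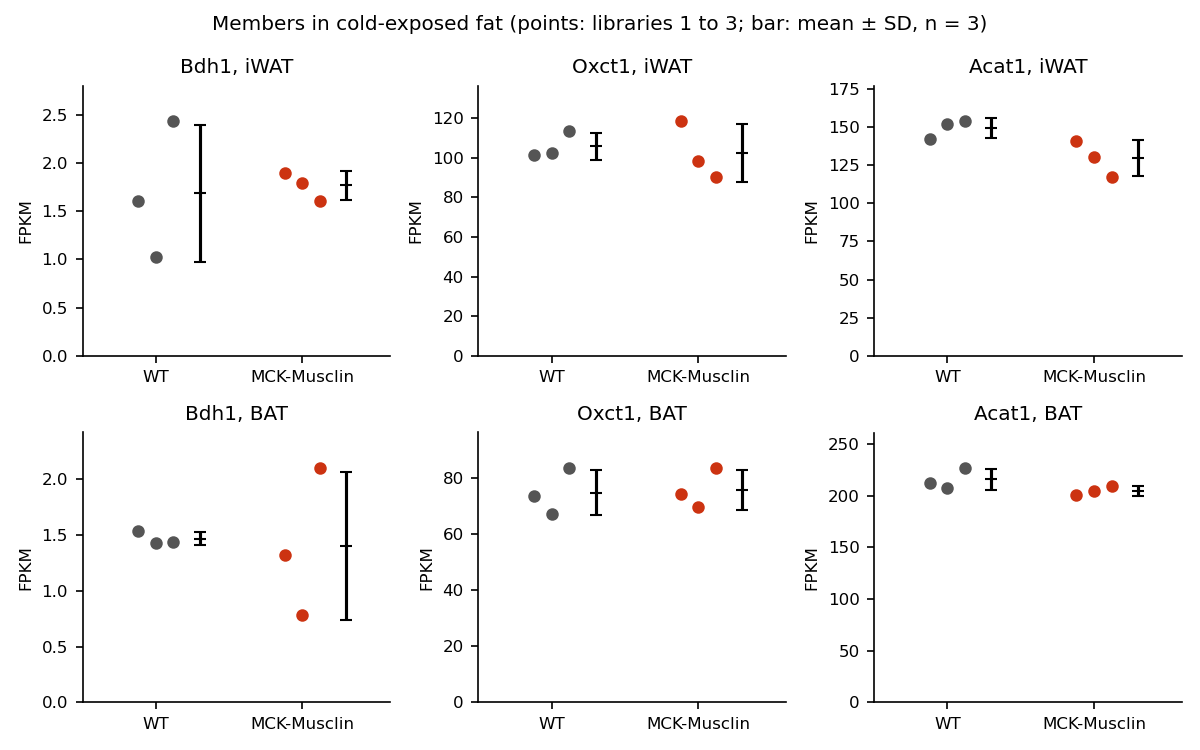
FPKM of each member (vertical axes from 0) in the 3 WT and 3 MCK-Musclin libraries of cold iWAT (top) and cold BAT (bottom), each point a library and each black bar the mean ± SD. Only the *Acat1* panel of iWAT shows groups that do not overlap, 142 to 154 FPKM against 117 to 141 FPKM.

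The difference between the tissues in the genotype effect was tested as an interaction over the 12 libraries. It was -0.13 on the log2 scale for *Acat1* (iWAT minus BAT, SE 0.12, 95% interval -0.40 to 0.14, adjusted p = 0.760), -0.08 for *Oxct1* (SE 0.17, adjusted p = 0.924) and 0.15 for *Bdh1* (SE 0.29, adjusted p = 0.915) in limma. Of 9757 genes tested, 0% had an adjusted p under 0.05 (limma) and 982 had an unadjusted p under 0.05, so the effect on the members was not shown to differ between iWAT and BAT. Without MCK-Musclin library 1 of iWAT the values were -0.19 for *Acat1*, -0.19 for *Oxct1* and 0.12 for *Bdh1*. The RNA of white fat was extracted with a commercial kit and that of the other tissues with TRIzol, and the tables were normalized separately, so tissue and handling cannot be told apart.

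Of the 21 other pathway genes reported here, 17 are in the iWAT table and 14 passed the filter. Of these 14, the mean of 12 was lower and that of 2 higher in MCK-Musclin mice, with a median log2 difference of -0.21 against 0.06 over all genes tested. Of all 12197 genes tested, 4715 were lower and 7482 higher. None passed an adjusted p of 0.05. At an unadjusted p under 0.05 (limma), 4 were lower, namely *Hadhb* (-0.71), *Acaa2* (-0.64), *Ppara* (-0.65) and *Slc16a7* (-0.37). Of all genes tested, 420, or 3.44%, were lower at this threshold. *Hadhb*, *Acaa2* and *Ppara*, or 3 of 14, passed the study's cutoff of an unadjusted p under 0.05 with a log2 change beyond 0.5. Of all genes, 0.902% passed that cutoff in this direction. *Hadhb* and *Acaa2* are thiolases of fatty acid oxidation, *Ppara* is the nuclear receptor for fatty acids, and *Slc16a7* is a monocarboxylate carrier with high affinity. *Hadhb* had 48.2 ± 4.98 FPKM in WT and 29.8 ± 8.74 FPKM in MCK-Musclin iWAT, with groups that did not overlap. The count of 4 genes was 2 without WT library 2 or 3, 5 without WT library 1 or MCK-Musclin library 1, and 3 when library 2 or 3 of the MCK-Musclin group was left out. The count of 12 lower genes of 14 was 12 without MCK-Musclin library 1 too.

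*Aacs* had 84.2 ± 15.5 FPKM in WT and 69.8 ± 16.3 FPKM in MCK-Musclin iWAT (adjusted p = 0.513, limma). In BAT, 11 genes of the list were tested, 6 lower and 5 higher, with a median of -0.03 against -0.01 over all genes, and 0 had an unadjusted p under 0.05, where 4.89% of all genes did.

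**Figure D4:**
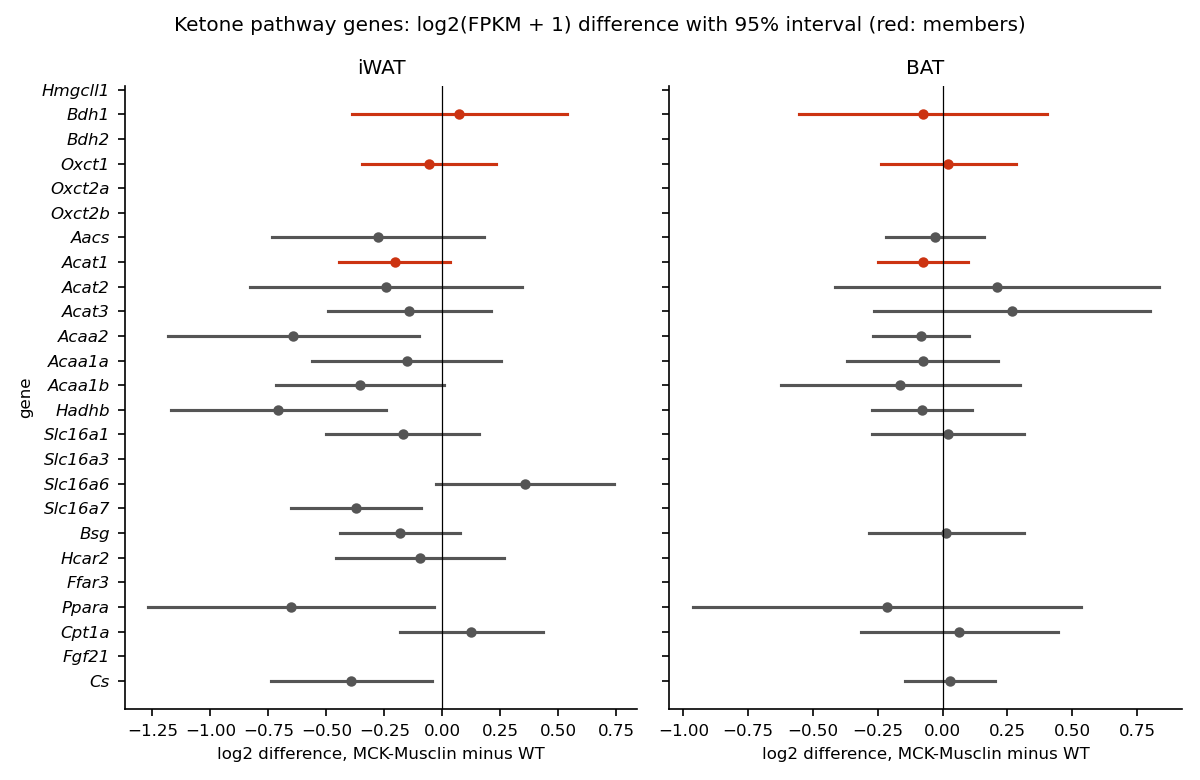
Log2 difference of log2(FPKM + 1), MCK-Musclin minus WT, with its 95% interval from limma for each pathway gene tested in iWAT (left) and BAT (right), members in red; genes with no mark did not pass the filter of 1 FPKM. In iWAT the *Acat1* interval runs from -0.45 to 0.03, and the intervals of *Hadhb*, *Acaa2*, *Ppara*, *Slc16a7* and *Cs* lie below 0.

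The 3 lists of mitochondrial enzymes whose reactions meet those of the members were lower in MCK-Musclin iWAT too. All 15 genes of fatty acid oxidation were lower, with a median log2 difference of -0.54, as were 16 of 17 TCA cycle genes, with a median of -0.32, and 13 of 15 genes of branched-chain amino acid breakdown, with a median of -0.22. Of all 12197 genes tested in iWAT, 4715 were lower. The list of fatty acid oxidation includes *Hadhb* and *Acaa2*. The lists also share genes, with *Dld* in those of the TCA cycle and amino acid breakdown. *Echs1* is in those of fatty acid oxidation and amino acid breakdown. The difference of *Acat1* (-0.21) was thus close to the median of the amino acid list and smaller than that of the other lists. That of *Oxct1* (-0.06) was smaller still, and that of *Bdh1* (0.07) had the opposite sign. Without MCK-Musclin library 1 the counts were 15 of 15, 17 of 17 and 14 of 15, and without WT library 3 they were 15, 16 and 14. The medians without MCK-Musclin library 1 were -0.77, -0.42 and -0.26 for fatty acid oxidation, the TCA cycle and amino acid breakdown. With log2 values centred on 10 general adipocyte markers, 15 of 15, 14 of 17 and 9 of 15 were lower, with medians of -0.34, -0.12 and -0.02. No gene of these lists passed an adjusted p of 0.05, and in BAT the medians of the 3 lists lay between -0.08 and -0.01.

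Set against *Cs*, the mean of each member in iWAT was higher in MCK-Musclin mice, which turned the sign of the differences of *Oxct1* and *Acat1* but not that of *Bdh1*. *Cs* itself had 158 ± 3.76 FPKM in WT and 122 ± 24.7 FPKM in MCK-Musclin iWAT, without overlap (log2 difference -0.39, SE 0.15, adjusted p = 0.258, limma). The ratio of *Oxct1* to *Cs* was 0.626, 0.663 and 0.718 in WT mice, against 0.799, 0.829 and 0.909 in MCK-Musclin mice. Every MCK-Musclin ratio lay above every WT ratio, by 0.34 on the log2 scale on average (exact two-sided permutation p = 0.1, the smallest that 3 libraries against 3 can give). However, 44.1% of the genes tested in iWAT had ratios to *Cs* that were higher in this way, so *Oxct1* shared this with many genes. The ratio of *Acat1* to *Cs* was 0.876, 0.983 and 0.971 in WT mice, against 0.951, 1.10 and 1.18 in MCK-Musclin mice, which overlapped (log2 difference 0.19, exact permutation p = 0.3), and that of *Bdh1* overlapped as well (0.55, exact permutation p = 0.3). Without MCK-Musclin library 1 these log2 differences were 0.38 for *Oxct1*, 0.28 for *Acat1* and 0.64 for *Bdh1*. In BAT, *Acat1* relative to *Cs* was 0.443, 0.442 and 0.479 in WT mice, against 0.435, 0.398 and 0.436 in MCK-Musclin mice. This was lower without overlap, by 0.10 on the log2 scale (exact permutation p = 0.1), as for 7.33% of the genes tested, and the ratios of *Oxct1* and *Bdh1* overlapped between the genotypes.

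**Figure D5:**
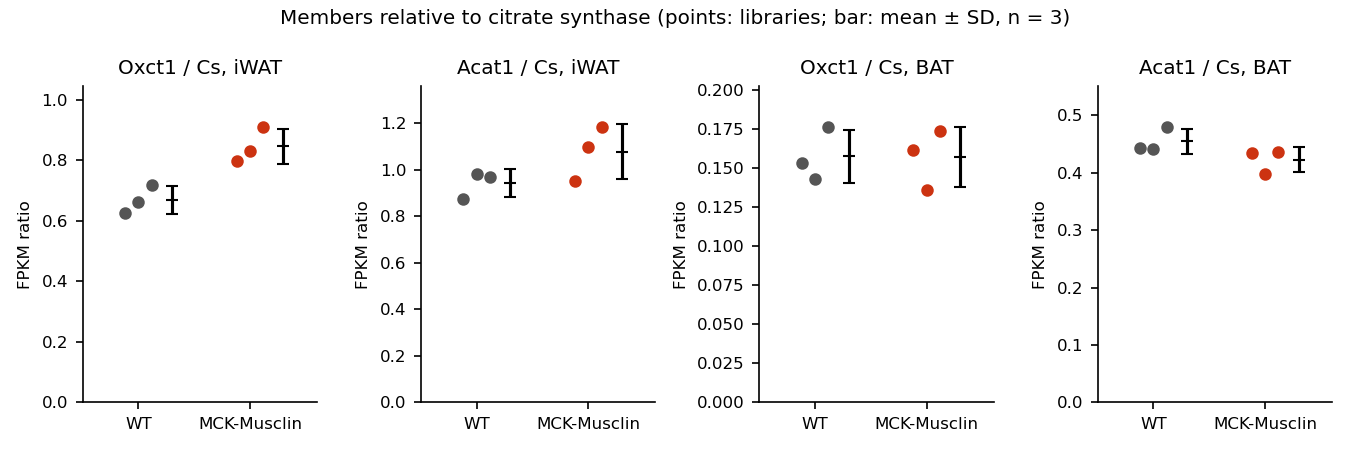
Ratio of the FPKM of *Oxct1* or *Acat1* to that of *Cs* (vertical axes from 0) in each library of cold iWAT and cold BAT, with the mean ± SD as a black bar. *Oxct1* over *Cs* runs from 0.626 to 0.718 in WT and from 0.799 to 0.909 in MCK-Musclin iWAT, and in BAT it overlaps.

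Markers of other cells moved between the iWAT libraries. The summed FPKM of 12 fast skeletal muscle markers was 11.2, 854 and 4794 in the WT group, against 11.2, 164 and 195 in the MCK-Musclin group, with 2 of the markers at 0 in the first library of each group. In the single libraries of the 7 tissues, *Oxct1* and *Acat1* had lower FPKM relative to *Cs* in TA muscle (0.896 and 0.340) than in white adipose tissue (1.198 and 0.786). In iWAT, library 1 of each genotype, lowest in muscle markers, had the lowest ratio of *Oxct1* to *Cs* (0.626 in WT, 0.799 in MCK-Musclin). Library 3, highest in these markers, had the highest (0.718 and 0.909). The ratio of *Acat1* to *Cs* was lowest in library 1 of each genotype too (0.876 and 0.951). These are orders of 3 libraries per genotype, and a link to muscle RNA was not tested. The 5 B cell markers summed to 121 to 233 FPKM in WT and 262 to 354 FPKM in MCK-Musclin iWAT, and the 5 T cell markers to 70.5 to 88.2 and 123 to 131 FPKM, and for all 10 genes the MCK-Musclin libraries lay above the WT libraries, as for 17.9% of all genes. The 10 brown and beige fat markers summed to 577, 905 and 1070 FPKM in WT and 648, 228 and 124 FPKM in MCK-Musclin libraries. They did not all move together. Of the 9 that passed the filter, 8 were lower in MCK-Musclin mice and *Tbx1* was higher (log2 difference 0.13), with groups that overlapped. *Tmem26*, below the filter, was higher without overlap, with 0.617 to 0.729 FPKM in WT and 0.754 to 1.09 FPKM in MCK-Musclin libraries. Within each genotype the library with the highest sum of the 10 markers also had the most *Acat1* (154 FPKM in WT, 141 FPKM in MCK-Musclin). The library with the lowest sum had the least (142 FPKM in WT, 117 FPKM in MCK-Musclin). Between the genotypes, MCK-Musclin library 1 had a higher sum than WT library 1 (648 against 577 FPKM) but slightly less *Acat1* (141 against 142 FPKM). A link between these markers and *Acat1* was not tested. The 10 general adipocyte markers summed to 16412 to 17256 in WT and 14654 to 16274 in MCK-Musclin FPKM, and when log2 values were centred on these markers, which moved the median of all genes to 0.26, the difference of *Acat1* was -0.01 and the pathway list had 7 of 14 genes lower. In BAT the muscle markers summed to 529 to 838 FPKM in WT and 874 to 1925 FPKM in MCK-Musclin mice, with 5 of 12 not overlapping against 4.38% of all genes. The 5 erythrocyte markers in BAT summed to 1553 to 1978 FPKM in WT and 2293 to 2388 FPKM in MCK-Musclin mice, with 4 of 5 higher without overlap, and the 4 endothelial markers to 131 to 134 and 119 to 121 FPKM. The part of these cells in the differences of the members was not tested.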

How the data were processed

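RNA-Seq was analysed in 19 libraries, 7 from tissues of WT mice and 12 from cold iWAT and BAT. Per the paper's methods, libraries were made with oligo(dT)-selected RNA and random primers, the authors used fastp and bowtie2 to filter reads and HISAT2 2.1.0, without strand, to align the rest to mm10 (GRCm38), and deposited FPKM per gene from StringTie. The submitters' processing notes also list Cuffdiff, so the tool behind each table is not certain. Read counts were not used here, so count tests were not run. The iWAT table also holds the authors' own comparison of the genotypes (fold changes, p-values, group means), which was not used. The BAT table and that of the 7 tissues each repeat 287 lines, which were dropped. The members and gene lists were chosen with earlier results of these data known. Some genes of the pathway and amino acid lists are not reported here and were left out of the counts.

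The genotype test was limma 3.58.1 in R 4.3.3 (trended eBayes) on log2(FPKM + 1), within a table and over genes with a mean of at least 1 FPKM, with Benjamini-Hochberg adjustment over those genes. The interaction used all 12 cold libraries. Changes of low genes come out too small on this scale. Ratios to *Cs* were tested by exact two-sided permutation (scipy 1.17.1), whose smallest p is 0.1. The 7 tissues have 1 library each and were given no test. The sources do not say whether the iWAT and BAT libraries came from the same animals, and the labels give no batch. The genes named are the members, the pathway list, *Ostn*, *Cs*, the marker lists and, per member, the 5 genes with the highest Pearson's r over the tissues; which members of a list are named was decided after their values were seen. Gene positions came from the GENCODE annotation of GRCm38. The limma step was tested on simulated data. Alternatives were pseudocounts of 0.1 and 0.01, no filter or a mean of at least 5 FPKM, TPM, median-ratio scaling, quantile normalization, robust or untrended eBayes, the replicate number as a block, library weights, centring on adipocyte markers, and leaving out each library. Tables were read with Python 3.11.15, pandas 2.3.3 and numpy 2.4.6, and figures drawn with matplotlib 3.10.9.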

Additional observations from a re-analysis of the deposited data

How the results depend on the processing

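No member passed an adjusted p of 0.05 in limma under any alternative, so these results bear on direction and size only. Centring on the general adipocyte markers turned *Oxct1* in iWAT to 0.14, *Bdh1* in BAT to 0.0043 and *Acat1* in BAT to 0.0053, and quantile normalization turned *Bdh1* in iWAT to -0.00036, and the cause was not tested. The difference of *Acat1* in iWAT kept its sign throughout, from -0.28 with median-ratio scaling to -0.01 with that centring. A minimum mean of 5 FPKM left out *Bdh1*. The highest tissue against the next was 1.57 for *Bdh1*, 2.39 for *Oxct1* and 1.35 for *Acat1* with 0.1 or 0.01 added, 1.73, 2.51 and 1.28 on TPM, and 0.929, 3.10 and 1.03 with median-ratio scaling.

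Leaving out 1 library gave log2 differences in iWAT from -0.12 to 0.27 for *Bdh1*, -0.17 to 0.030 for *Oxct1* and -0.27 to -0.14 for *Acat1*. In BAT they ran from -0.28 to 0.12, -0.050 to 0.10 and -0.10 to -0.04. The difference between the tissues ran from -0.048 to 0.35 for *Bdh1*, -0.19 to 0.0074 for *Oxct1* and -0.19 to -0.06 for *Acat1*. The log2 ratio to *Cs* ran in iWAT from 0.25 to 0.85, 0.29 to 0.39 and 0.12 to 0.28, and in BAT from -0.57 to 0.20, -0.084 to 0.095 and -0.13 to -0.06, in the same order of genes. Signs changed for *Bdh1* without WT library 2 of iWAT or MCK-Musclin library 2 of BAT, and for *Oxct1* without MCK-Musclin library 3 of iWAT, or WT library 2 or 3 or MCK-Musclin library 2 or 3 of BAT.

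The labels share replicate numbers between the genotypes. In iWAT the deviations of same-numbered libraries correlated at 0.23, 0.06 and 0.11, against -0.18 to 0.07 for libraries of different numbers. In BAT they correlated at -0.10, -0.0046 and 0.0094, against -0.08 to 0.08. For iWAT these values do not settle whether the numbers mark pairs. The main test took no pairs, and the replicate number as a block is given as an alternative. With the replicate block the difference of *Acat1* in iWAT was -0.21 (adjusted p = 0.426, limma), no member passed the threshold, and the genes of the pathway list lower at an unadjusted p under 0.05 went from 4 to 2. Values have no counts behind them, so the depth limits on *Bdh1*, near 1 FPKM in fat, are unknown. The list counts without 1 library or with the centring were added after the data were seen.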

Other observations

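In cold fat the FPKM of *Acat1* relative to *Oxct1*, a ratio chosen after the values were seen and given without a test, was 1.40, 1.48 and 1.35 in WT and 1.19, 1.32 and 1.30 in MCK-Musclin libraries of iWAT. In BAT it was 2.89, 3.09 and 2.72 in WT and 2.70, 2.93 and 2.50 in MCK-Musclin libraries. In the white and brown adipose libraries of the 7 tissues, normalized separately, it was 0.656 and 1.17.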
